A study of Mus musculus with 15 samples.

Results

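The 19 mouse WNT ligands, their 10 Frizzled receptors, the co-receptors Lrp5 and Lrp6, the secreted inhibitors of the pathway, its feedback genes and the TCF/LEF transcription factors were followed through an inflammatory challenge of astrocytes. The genes were taken by symbol: every row whose name starts with Wnt, Fzd, Dkk or Sfrp followed by a digit, and Frzb, Wif1, Axin2, Lef1, Tcf7, Tcf7l1, Tcf7l2, Lrp5, Lrp6, Rnf43, Znrf3, Nkd1 and Nkd2. This gave 50 of the 25748 gene symbols counted. They comprise 19 ligands, 10 Frizzled receptors, 2 co-receptors, 9 secreted inhibitors, 5 feedback genes, 4 TCF/LEF factors and 1 antisense RNA, Fzd10os, which the rule takes by its letters alone.

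WNT proteins are secreted, lipid-modified signals that bind Frizzled receptors at the cell surface. With Lrp5 or Lrp6 as co-receptor, the signal stops the destruction complex from degrading beta-catenin, which then enters the nucleus and acts through TCF/LEF factors. Other WNT proteins act through Frizzled, Ror2 and planar polarity proteins without beta-catenin. Sfrp, Frzb, Wif1 and most Dkk proteins hold the signal back outside the cell. Axin2, Nkd1, Rnf43 and Znrf3 are feedback genes that many cells induce when the pathway is active. In the brain, WNT signals pattern the embryo, guide axons and build the blood-brain barrier, and glia both send and receive them.

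The cells were primary astrocytes of mouse brain, whose polyadenylated RNA was sequenced in 15 libraries, 5 in each of 3 groups. Cells of the Rg1 plus LPS group were first given ginsenoside Rg1, a saponin of ginseng, at 80 µM for 12 h and then 1 µg/mL lipopolysaccharide (LPS), the bacterial cell wall component sensed by TLR4, for 6 to 8 h. In the LPS group, which the submitters labelled SCI, cells received 1 µg/mL LPS for 6 to 8 h and no Rg1. The control group was left untreated. A group given Rg1 without LPS was not analysed here, so an effect of Rg1 on cells at rest cannot be told apart from an effect on the response to LPS. Whether a group's 5 libraries stem from different animals or cultures is not stated, and the p-values cover the spread among these libraries, which may be technical.

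Total counts per library ran from 36.2 to 41.1 M in Rg1 plus LPS, from 34.2 to 41.8 M in LPS and from 34.3 to 39 M in control. All 9 astrocyte markers examined were present in every group, with summed normalised read counts of 6280 to 9850 CPM in Rg1 plus LPS, 5770 to 10000 CPM in LPS and 8890 to 11400 CPM in control (CPM, counts per M of the normalised library size). Fibroblast and meningeal markers were also abundant, at 2280 to 6700 CPM in Rg1 plus LPS, 4810 to 6720 CPM in LPS and 4600 to 6110 CPM in control. Of those 8 markers, the meningeal transporter Slc6a13 alone was at 0 in LPS and control and had 4 counts in Rg1 plus LPS. The 9 microglia and macrophage markers summed to 25.6 to 62.6 CPM in Rg1 plus LPS, 37.2 to 78.2 CPM in LPS and 34.3 to 76.1 CPM in control. Tmem119 alone held 18 to 58 CPM of this sum in Rg1 plus LPS, 22.4 to 36.6 CPM in LPS and 22.9 to 35.3 CPM in control. The other 8, a split made after the values were seen, summed to 4.62 to 8.72 CPM in Rg1 plus LPS, below every library of LPS (10.9 to 41.6 CPM) and of control (10.3 to 44.6 CPM). Of the 9, 5 were called lower in Rg1 plus LPS than in LPS (23.2% of all genes tested) and 3 than in control (18.1%). None was called in LPS against control (23.7% of all genes). Of the 9 astrocyte markers, 5 were lower and none higher in LPS than in control (9.82% and 13.8% of all genes). In Rg1 plus LPS against LPS, 4 of them were higher and 1 lower (22.2% and 23.2%), and against control 4 were lower (18.1%). Of 3 ependymal markers tested, 2 were lower in LPS than in control and 2 higher in Rg1 plus LPS than in LPS. Sums of the 5 endothelial markers did not overlap between the groups, at 90.5 to 107 CPM in Rg1 plus LPS, 164 to 190 CPM in LPS and 129 to 156 CPM in control, while Pecam1 and Cldn5 among them had at most 36 counts in any group. Mitochondrially encoded genes took 2.77 to 4.98% of counts in Rg1 plus LPS, 1.58 to 2.37% in LPS and 2.49 to 2.8% in control.

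Replicates 1 and 4 of the Rg1 plus LPS group were the lowest pair for most WNT genes. For 31 of the 42 members that could be tested (73.8%), these were the 2 lowest of the 5 Rg1 plus LPS libraries. The same held for 3857 of the 15362 genes tested (25.1%). They were the 2 highest for no member, against 3507 of all genes tested (22.8%). Over all genes the pair thus stood apart in both directions. The fibroblast and meningeal sum was 2280 and 3150 CPM in replicates 1 and 4, against 5650, 4890 and 6700 CPM in replicates 2, 3 and 5. Their astrocyte sums of 6280 and 6540 CPM were also the lowest of the group, whose other libraries had 7620 to 9850 CPM. Whether the cell makeup behind these 2 libraries sets the WNT values was not tested. The number of members called in each comparison is given below with and without them, an alternative chosen after the values were seen.

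**Figure D1:**
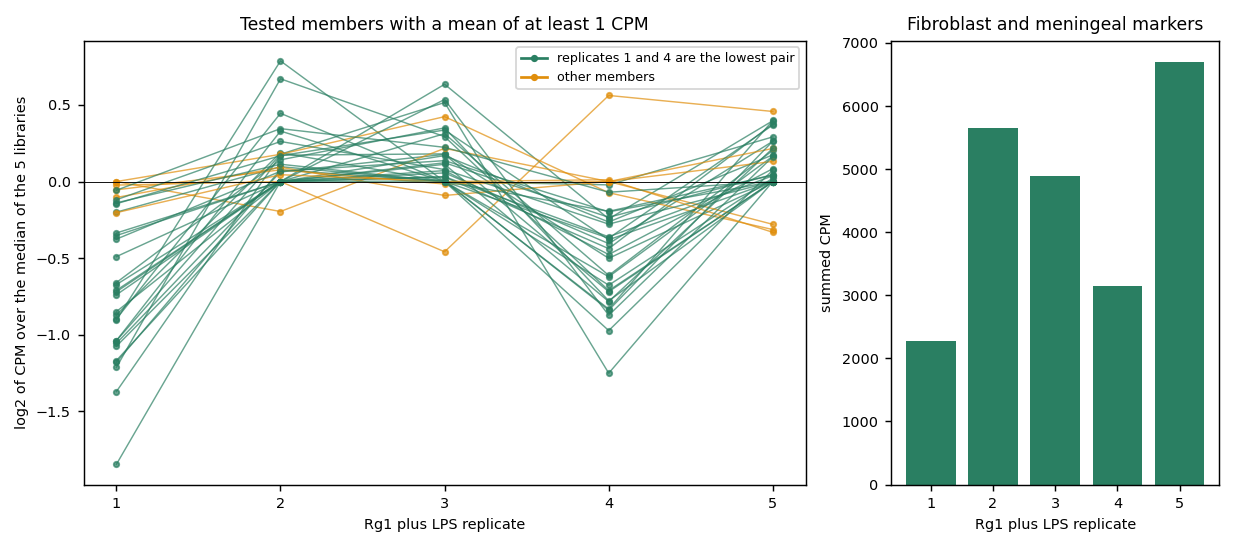
Left, the 33 tested members with a mean of at least 1 CPM over the Rg1 plus LPS libraries, as log2 of each library's CPM over the median of the 5 libraries, by replicate; right, the summed CPM of 8 fibroblast and meningeal markers in the same libraries. Most lines dip at replicates 1 and 4, where the marker sum is 2280 and 3150 CPM.

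Of the 50 genes, 42 passed the filter on low counts and were tested by edgeR's quasi-likelihood test, with p-values adjusted by the Benjamini-Hochberg method over all 15362 genes and a call at adjusted p under 0.05. LPS alone raised a small set of ligands and receptors, Wnt10b, Wnt10a, Wnt11, Fzd1, Fzd9 and Lrp5, and lowered others, among them Wnt7a, Wnt16 and Wnt5b and the feedback genes Axin2 and Rnf43. Against control, 8 members were higher and 11 lower in LPS, 19 of 42 (45.2%), where 23.7% of all genes were called, 13.8% higher and 9.82% lower. The median log2 fold change of the members was -0.27 and that of all genes was close to 0 at -0.0029. The median size of the change, without its sign, was 0.42 for the members and 0.21 for all genes. Scaled by library size alone the split was 6 higher and 13 lower, and with an offset for gene length it was 6 and 12. The count fell to 10 without control replicate 2 and to 12 without LPS replicate 5, where 19.3% and 18.5% of all genes were called. It was 23, 8 higher and 15 lower, without Rg1 plus LPS replicates 1 and 4, which enter here only through the shared fit. In that fit 28.9% of all genes were called. Of the 19 calls, 9 held in all 26 alternatives tried (Fzd8, Tcf7, Tcf7l1, Wnt10a, Wnt10b, Wnt11, Wnt16, Wnt5b and Wnt7a), and Fzd9 lost its call in 5 of them, Axin2 in 6 and Lrp5 in 14.

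In Rg1 plus LPS against LPS, Wnt10b, Wnt10a, Wnt11, Fzd1 and Lrp5 were lower, and Wnt7a, Wnt5b, Fzd8 and Fzd2 were higher. Calls numbered 5 higher and 11 lower, 16 of 42 (38.1%), where 45.4% of all genes were called, 22.2% higher and 23.2% lower. The members' share was thus no larger than that of all genes, and their median log2 fold change was -0.11, against 0.03 for all genes. Library size alone as the scale gave 7 higher and 9 lower, and moved the median of all genes by over 0.1, to 0.14. An offset for gene length gave 9 and 10. Across all genes the change depended on gene length, with a Spearman correlation of -0.33 between log2 fold change and length over 15359 genes, which are not independent. Without Rg1 plus LPS replicates 1 and 4 there were 21 calls, 11 higher and 10 lower, where 47.5% of all genes were called. Dkk3, Fzd4, Sfrp2, Sfrp4, Tcf7 and Tcf7l2 were then also higher, and Lrp6 was no longer called. Over the 26 alternatives 13 of the 16 calls always held, while Wnt7a lost its call in 1, Lrp6 in 9 and Wnt2 in 12.

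Rg1 plus LPS against control left most of the called members lower. Only Tcf7l1 was higher and 16 were lower, 17 of 42 (40.5%), where 36.9% of all genes were called, 18.8% higher and 18.1% lower. The median log2 fold change was -0.32 for the members and 0.01 for all genes. With library size alone as the scale the split was 3 higher and 14 lower, and with the length offset 2 and 14. Without Rg1 plus LPS replicates 1 and 4, 3 members were higher (Fzd2, Tcf7l1 and Wnt5a) and 11 lower, since Axin2, Frzb, Lrp5, Sfrp1 and Wif1 were not called. In that fit 36% of all genes were called. In all, 9 of the 17 calls held in every one of the 26 alternatives. In these bulk samples, fewer cells of a type and less RNA per cell cannot be told apart.

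Across the 3 comparisons, 5 members were higher in LPS than in control and lower in Rg1 plus LPS than in LPS: Fzd1, Lrp5, Wnt10a, Wnt10b and Wnt11. The reverse was seen for 3, Fzd8, Wnt5b and Wnt7a, while Lrp6 was lower in both. Both comparisons use the same LPS libraries, so their fold changes are not independent, and the values of each group are therefore given first for each gene. For 13 tested members no comparison passed: Dkk2, Fzd10, Fzd5, Nkd1, Nkd2, Sfrp2, Sfrp4, Tcf7l2, Wnt2b, Wnt4, Wnt5a, Wnt6 and Wnt9a. Of these 13, Fzd10, Nkd1, Nkd2, Wnt2b, Wnt4 and Wnt6 were also called in none of the 26 alternatives, and the other 7 were called in at least 1. How often genes outside the members showed opposed calls, or no call at all, was not counted. Whether the members differ from other genes in these patterns was therefore not tested.

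**Figure D2:**
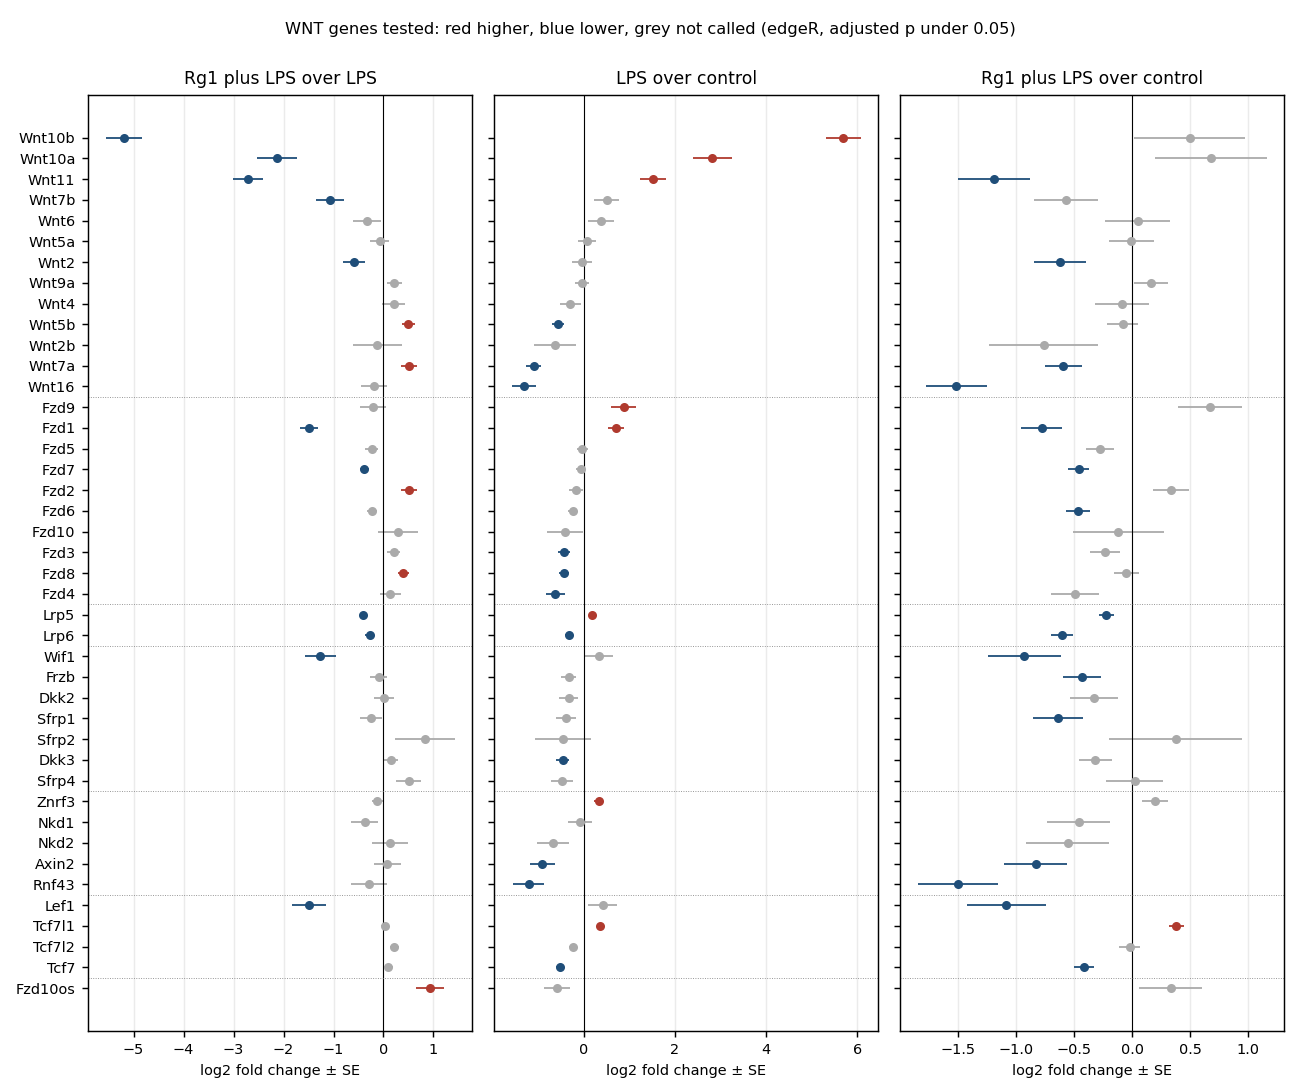
Log2 fold change ± SE of the 42 tested members (rows, grouped by role) in the 3 comparisons, with the tested members called higher in red, lower in blue and not called in grey. Wnt10b lies farthest from 0 in the first 2 panels, at -5.20 and 5.69, and in the third Tcf7l1 is the only member called higher.

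Wnt10b, a ligand that acts through beta-catenin and favours bone over fat formation in mice, showed the widest difference. It had 0.145, 0.0496, 0.395, 0.106 and 0.381 CPM in Rg1 plus LPS replicates 1 to 5, 7.66, 8.32, 7.74, 5.67 and 11.0 CPM in LPS, and 0.103, 0.19, 0.107, 0.117 and 0.252 CPM in control. Every LPS library was far above every other library, and the Rg1 plus LPS and control libraries overlapped. The log2 fold change was -5.20 ± 0.37 (SE) in Rg1 plus LPS against LPS (adjusted p = 9.78e-09) and 5.69 ± 0.39 in LPS against control (adjusted p = 9.96e-09). Between Rg1 plus LPS and control it was 0.49 ± 0.48 (adjusted p = 0.444). The summed microglia and macrophage markers other than Tmem119 were likewise lower in every Rg1 plus LPS library than in every LPS library, and overlapped between LPS and control. Tmem119 itself and the sum of all 9 markers overlapped between Rg1 plus LPS and LPS. Within LPS, Wnt10b and Wnt11 were highest in replicate 5, where the other 8 markers summed lowest (10.9 CPM). Fzd1 was highest in replicate 3, where they summed highest (41.6 CPM). Control replicate 4 had 44.6 CPM of these 8 markers and 0.117 CPM of Wnt10b. Wnt11 and Fzd1 were also lower in every Rg1 plus LPS library than in every LPS library. The part of microglia and macrophages in the values of the 3 genes was not tested.

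Wnt1, the ligand that patterns the midbrain in mouse embryos, lies next to Wnt10b on the opposite strand. In GRCm38, Wnt10b spans chr15:98770712-98778150 on the minus strand and Wnt1 chr15:98789857-98793837 on the plus strand, 11706 bases apart. In the main fit Wnt1 was too low to pass the filter. With no filter Wnt1 was called lower in Rg1 plus LPS than in LPS and higher in LPS than in control. DESeq2 called the first of these. In LPS against control DESeq2 gave an adjusted p to only 43 members, so Wnt1 may not have been tested there. Wnt1 had 0 counts in all 5 Rg1 plus LPS libraries, 5, 7, 12, 3 and 9 in LPS, and 2 in control, both of them in replicate 2. Against a floor of 3 counts over the group, Wnt1 was at least 13.3-fold lower in Rg1 plus LPS than in LPS, and the ratio of LPS to control was 18.1 (95% counting interval 4.66 to 155). These intervals cover counting error only.

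The bases around the annotated starts of Wnt10b and Wnt1, neighbours that were both highest in LPS, are shown beside those of Wnt11, Fzd1 and Wnt16, chosen because they hold a match to a motif searched here. Of the 11 members with a window that were called with no overlap between LPS and control, 4 hold such a match (Fzd1, Fzd9, Wnt11 and Wnt16) and 7 do not (Fzd4, Rnf43, Tcf7, Tcf7l1, Wnt10b, Wnt5b and Wnt7a). Each window runs from 250 bases before to 50 after the RefSeq start on GRCm38.p6 and reads 5′ to 3′ along the gene's strand. The windows are chr15:98778101-98778400 (minus) for Wnt10b, chr15:98789607-98789906 (plus) for Wnt1, chr7:98834862-98835161 (plus) for Wnt11, chr5:4758167-4758466 (minus) for Fzd1 and chr6:22287977-22288276 (plus) for Wnt16. Capitals mark matches to the TCF/LEF letters CTTTGA or the NF-kB letters GGAANNNCC on either strand.
Wnt10b: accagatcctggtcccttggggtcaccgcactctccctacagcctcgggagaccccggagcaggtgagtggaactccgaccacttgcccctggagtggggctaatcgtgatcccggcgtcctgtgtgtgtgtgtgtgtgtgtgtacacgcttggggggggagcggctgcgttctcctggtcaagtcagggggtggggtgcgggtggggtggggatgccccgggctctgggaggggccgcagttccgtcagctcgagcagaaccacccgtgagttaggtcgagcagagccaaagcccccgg
Wnt1: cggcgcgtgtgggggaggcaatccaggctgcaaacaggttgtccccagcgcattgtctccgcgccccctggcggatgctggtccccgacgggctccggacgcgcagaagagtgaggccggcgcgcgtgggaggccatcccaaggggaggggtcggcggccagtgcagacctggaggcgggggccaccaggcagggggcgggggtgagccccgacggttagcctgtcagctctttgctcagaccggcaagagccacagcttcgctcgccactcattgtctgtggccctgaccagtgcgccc
Wnt11: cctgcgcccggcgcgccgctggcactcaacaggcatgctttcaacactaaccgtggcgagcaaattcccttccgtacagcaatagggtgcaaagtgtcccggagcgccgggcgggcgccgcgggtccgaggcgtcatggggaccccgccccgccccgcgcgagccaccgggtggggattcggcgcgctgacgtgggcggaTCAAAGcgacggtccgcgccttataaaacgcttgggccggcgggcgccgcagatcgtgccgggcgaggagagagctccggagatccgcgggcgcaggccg
Fzd1: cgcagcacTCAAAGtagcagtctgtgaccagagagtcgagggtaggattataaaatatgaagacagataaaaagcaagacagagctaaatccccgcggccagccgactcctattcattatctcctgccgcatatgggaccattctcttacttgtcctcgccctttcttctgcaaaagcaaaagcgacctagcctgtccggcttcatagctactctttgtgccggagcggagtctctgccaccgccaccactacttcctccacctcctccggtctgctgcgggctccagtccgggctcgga
Wnt16: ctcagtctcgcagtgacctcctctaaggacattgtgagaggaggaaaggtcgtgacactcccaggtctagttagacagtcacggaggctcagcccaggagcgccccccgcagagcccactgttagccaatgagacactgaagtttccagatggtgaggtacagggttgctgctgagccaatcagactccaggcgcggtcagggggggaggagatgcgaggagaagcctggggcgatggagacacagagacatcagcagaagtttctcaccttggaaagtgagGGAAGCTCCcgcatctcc
The windows of Wnt10b and Wnt1 hold neither run of letters. A TCF/LEF match on the opposite strand begins at -50 in Wnt11 and at -242 in Fzd1, and an NF-kB match at 33 in Wnt16, counted from the start. Among the 35 members with a promoter in the table, 4 held the TCF/LEF letters and 6 the NF-kB letters, where 16% and 18.5% of all 32851 windows of this length did. The share of all windows with either run was not counted, so the matches among the called members above have no background share. For each member only the most upstream window was taken, while the shares of all windows include every window of a gene. A match is a description of letters and says nothing of binding.

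Wnt10a, which acts in teeth, hair and skin, showed the pattern of Wnt10b at a lower level. Its counts were 4, 11, 5, 4 and 10 in Rg1 plus LPS, 41, 25, 12, 20 and 41 in LPS, and 4, 2, 6, 5 and 2 in control. The LPS libraries were above all others, the lowest by 1 count. The log2 fold change was -2.14 ± 0.40 in Rg1 plus LPS against LPS (adjusted p = 0.000381) and 2.81 ± 0.43 in LPS against control (adjusted p = 0.000137). Wnt6 lies 6193 bases from Wnt10a on chr1, on the same strand, and did not pass in any comparison, with 1.31 ± 0.48 CPM in Rg1 plus LPS, 1.64 ± 0.46 CPM in LPS and 1.26 ± 0.25 CPM in control (SD, n = 5 each).

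Wnt11, known for beta-catenin-independent control of cell movement, was lower in Rg1 plus LPS than in either other group. Rg1 plus LPS libraries had 1.01, 1.31, 0.346, 1.09 and 0.786 CPM, LPS libraries 5.48, 4.72, 5.22, 6.12 and 8.29 CPM, and control libraries 2.56, 2.95, 1.74, 1.05 and 2.07 CPM. All LPS libraries were above all others, and Rg1 plus LPS met the control range only at control replicate 4. The log2 fold changes were -2.71 ± 0.31 in Rg1 plus LPS against LPS (adjusted p = 2.93e-06), 1.52 ± 0.29 in LPS against control (adjusted p = 0.00103) and -1.19 ± 0.31 in Rg1 plus LPS against control (adjusted p = 0.00657). Wnt11 (chr7:98835112-98855195) overlaps Gm8398 on the other strand, and without the strand setting of the counting the 2 cannot be told apart.

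Wnt7a and Wnt7b are the ligands that direct vessel growth and barrier formation in the mouse brain, and they moved in opposite ways in Rg1 plus LPS against LPS. Wnt7a had 12.9, 21.1, 26.2, 13.8 and 24.3 CPM in Rg1 plus LPS, 13.6, 12.1, 15.5, 13.6 and 14.2 CPM in LPS, and 30.5, 26.6, 27.8, 31.7 and 31.5 CPM in control. Every control library was above every treated one, and Rg1 plus LPS replicates 1 and 4 lay within the LPS range while replicates 2, 3 and 5 lay above it. Its log2 fold change was 0.51 ± 0.16 in Rg1 plus LPS against LPS (adjusted p = 0.0177), -1.10 ± 0.16 in LPS against control (adjusted p = 0.000109) and -0.59 ± 0.16 in Rg1 plus LPS against control (adjusted p = 0.0091). Without LPS replicates 2 and 3, the libraries with the most microglia marker RNA, the first of these had adjusted p = 0.0565 with a log2 fold change of 0.50. Wnt7b had 1.01, 1.61, 2.5, 1.36 and 2.12 CPM in Rg1 plus LPS, 2.69, 3.47, 5.53, 2.57 and 3.83 CPM in LPS, and 2.35, 3.39, 1.63, 3.31 and 2.1 CPM in control. All LPS libraries were above all Rg1 plus LPS libraries, by a narrow margin, and both overlapped control. Wnt7b was lower in Rg1 plus LPS than in LPS (log2 fold change -1.07 ± 0.28, adjusted p = 0.00471) and passed in neither comparison with control. It overlaps AU022754 on the other strand.

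Wnt16, studied mainly in bone and blood stem cells, was lower in both treated groups. Levels were 3.16, 10.2, 5.91, 3.32 and 7.79 CPM in Rg1 plus LPS, 6.34, 6.69, 7.07, 6.32 and 8.24 CPM in LPS, and 17.2, 20.1, 16.3, 20.8 and 12.3 CPM in control. No treated library reached the lowest control library, and the 2 treated groups overlapped, with Rg1 plus LPS the more scattered. Wnt16 had a log2 fold change of -1.32 ± 0.26 in LPS against control (adjusted p = 0.00163) and -1.51 ± 0.26 in Rg1 plus LPS against control (adjusted p = 0.000391). Between the treated groups it was -0.19 ± 0.26 (adjusted p = 0.585), and 0.21 without Rg1 plus LPS replicates 1 and 4.

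Wnt5b, a close relative of Wnt5a that often acts without beta-catenin, was lower in LPS than in both other groups. It had 18.3, 25.7, 28.9, 21.4 and 29.0 CPM in Rg1 plus LPS, 15.2, 16.9, 21.7, 14.3 and 19.2 CPM in LPS, and 23.7, 28.4, 28.1, 25.6 and 24.5 CPM in control. The LPS libraries lay below all control libraries, and Rg1 plus LPS overlapped both groups. Wnt5b was higher in Rg1 plus LPS than in LPS (log2 fold change 0.50 ± 0.13, adjusted p = 0.0058) and lower in LPS than in control (-0.58 ± 0.13, adjusted p = 0.00438), with -0.08 ± 0.13 between Rg1 plus LPS and control (adjusted p = 0.659). It overlaps Fbxl14 on the other strand. Wnt5a itself had 42.4 ± 14.4 CPM in Rg1 plus LPS, 44.6 ± 6.2 CPM in LPS and 42.6 ± 4.64 CPM in control, and its log2 fold changes lay between -0.07 and 0.07.

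Wnt2, a ligand of lung and vessel development, had 14.0 ± 3.88 CPM in Rg1 plus LPS, 21.0 ± 5.43 CPM in LPS and 21.6 ± 5.32 CPM in control. It was lower in Rg1 plus LPS than in LPS (log2 fold change -0.58 ± 0.22, adjusted p = 0.0419) and than in control (-0.62 ± 0.22, adjusted p = 0.0376), with overlapping libraries in both. These calls depended on the processing: the first was lost in 12 of 26 alternatives (adjusted p up to 0.109) and the second in 8 (up to 0.1), both of them with library size alone, with no filter and without Rg1 plus LPS replicate 1, 2 or 3. The remaining tested ligands, Wnt2b, Wnt4 and Wnt9a, did not pass, though Wnt9a was called in Rg1 plus LPS against LPS without LPS replicate 3, alone or with replicate 2. Of the untested ligands besides Wnt1, Wnt9b had 1 count in Rg1 plus LPS, 21 in LPS and 3 in control. The ratio of Rg1 plus LPS to LPS was 0.043 (95% counting interval 0.00104 to 0.267), and that of LPS to control was 7.04 (2.1 to 36.8). With no filter and with DESeq2, Wnt9b was called lower in Rg1 plus LPS than in LPS. Wnt3, 24328 bases from Wnt9b on chr11, had 12 counts in Rg1 plus LPS, 7 in LPS and 5 in control. Wnt8b had 8 in Rg1 plus LPS, 2 in LPS and 4 in control, and Wnt8a 4 in Rg1 plus LPS, 1 in LPS and 1 in control. Wnt3a, a ligand used in many laboratory assays, had a single count, in LPS. These 4 were too low to pass the filter.

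**Figure D3:**
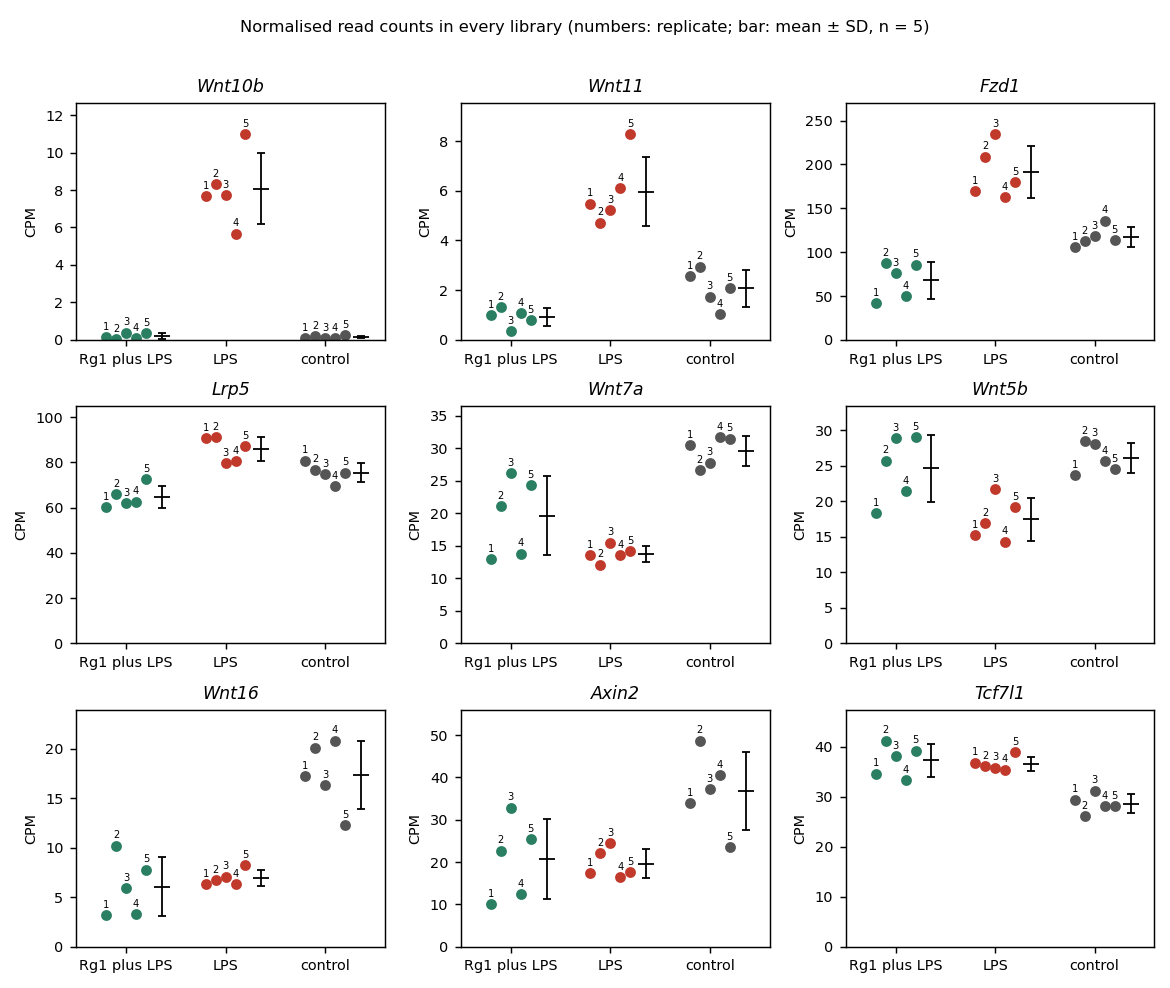
Normalised read counts (CPM, linear axes from 0) of 9 members in every library, with the replicate number at each point and the mean ± SD of the 5 libraries at its right. The LPS libraries of Wnt10b, at 5.67 to 11.0 CPM, stand above all others, and Rg1 plus LPS replicates 1 and 4 are the lowest of their group for Fzd1, Wnt7a, Wnt5b, Wnt16, Axin2 and Tcf7l1.

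Among the receptors, Fzd1 was the one with groups fully apart. Fzd1, Fzd2 and Fzd7 form a closely related subfamily that can work with Lrp6 to signal through beta-catenin. Fzd1 (chr5:4753839-4758035, minus strand) had 41.9, 87.3, 76.6, 49.8 and 85.9 CPM in Rg1 plus LPS, 170, 209, 235, 163 and 180 CPM in LPS, and 106, 113, 118, 136 and 114 CPM in control. The 3 ranges did not overlap, with Rg1 plus LPS lowest and LPS highest. The log2 fold changes were -1.49 ± 0.18 in Rg1 plus LPS against LPS (adjusted p = 9.01e-06), 0.71 ± 0.18 in LPS against control (adjusted p = 0.00909) and -0.78 ± 0.18 in Rg1 plus LPS against control (adjusted p = 0.00317). Fzd1 was highest in LPS replicates 2 and 3, where the 8 microglia and macrophage markers other than Tmem119 summed to 31.7 and 41.6 CPM, against 10.9 to 15.6 CPM in replicates 1, 4 and 5. The part of microglial RNA in this value was not tested. Without these 2 libraries the value of LPS against control was 0.54 (adjusted p = 0.0507). Without Rg1 plus LPS replicates 1 and 4, the value of Rg1 plus LPS against control was -0.49 (adjusted p = 0.00425).

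Fzd2 and Fzd7 did not follow Fzd1. Fzd2 had 69.4, 125, 130, 94.4 and 150 CPM in Rg1 plus LPS, 80.4, 88.0, 88.3, 63.9 and 79.4 CPM in LPS, and 89.2, 93.9, 89.4, 92.0 and 87.5 CPM in control. Rg1 plus LPS replicates 2, 3, 4 and 5 were above every LPS library and replicate 1 was below all libraries but LPS replicate 4. Its log2 fold change in Rg1 plus LPS against LPS was 0.51 ± 0.15 (adjusted p = 0.0138), and neither comparison with control passed. Without Rg1 plus LPS replicates 1 and 4, Fzd2 was also higher in Rg1 plus LPS than in control, by 0.58 (adjusted p = 0.000161), and without replicate 1 alone by 0.47. Fzd7 had 97.7, 112, 98.6, 105 and 115 CPM in Rg1 plus LPS, 154, 126, 110, 159 and 141 CPM in LPS, and 158, 146, 141, 129 and 152 CPM in control. The Rg1 plus LPS libraries were below all control libraries and below all LPS libraries but replicate 3. Fzd7 was lower in Rg1 plus LPS than in LPS (log2 fold change -0.39 ± 0.09, adjusted p = 0.00236) and than in control (-0.46 ± 0.09, adjusted p = 0.000912), while LPS against control gave -0.07 ± 0.09 (adjusted p = 0.591).

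Fzd3 and Fzd6 take part in planar polarity and axon guidance in mice. Fzd6 had 39.3, 49.6, 54.0, 42.2 and 51.2 CPM in Rg1 plus LPS, 48.9, 58.3, 60.5, 54.3 and 53.8 CPM in LPS, and 57.7, 66.2, 64.2, 80.0 and 58.6 CPM in control. Rg1 plus LPS lay below all control libraries, and LPS overlapped both. In Rg1 plus LPS against control the log2 fold change was -0.47 ± 0.10 (adjusted p = 0.00181), and the other 2 comparisons did not pass. Fzd6 overlaps Gm26704 on the other strand, and Fzd3 overlaps Gm27263 on the same strand and Gm9086 on the other. Fzd3 was lower in LPS than in control (log2 fold change -0.44 ± 0.13, adjusted p = 0.0241), with 70.2 ± 13.6 CPM in Rg1 plus LPS, 60.9 ± 10.1 CPM in LPS and 82.4 ± 8.18 CPM in control. The call was lost without LPS replicate 1 or 5 or control replicate 2 (adjusted p up to 0.0671), and with the length offset Fzd3 was also called in Rg1 plus LPS against LPS.

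Fzd8, of the subfamily it shares with Fzd5, showed the pattern of Wnt5b. It had 17.7, 22.6, 23.1, 17.6 and 23.2 CPM in Rg1 plus LPS, 15.9, 14.3, 18.4, 13.3 and 17.1 CPM in LPS, and 18.8, 22.7, 23.8, 22.7 and 19.5 CPM in control. LPS libraries were below all control libraries, and in Rg1 plus LPS only replicates 1 and 4 fell within the LPS range. Its log2 fold change was 0.40 ± 0.11 in Rg1 plus LPS against LPS (adjusted p = 0.00773) and -0.45 ± 0.11 in LPS against control (adjusted p = 0.0076), and -0.05 ± 0.11 between Rg1 plus LPS and control (adjusted p = 0.758). Fzd5 passed in no comparison, with 20.7 ± 2.58 CPM in Rg1 plus LPS, 24.4 ± 3.44 CPM in LPS and 25.1 ± 4.33 CPM in control. Fzd4, which also binds Norrin, was lower in LPS than in control (-0.62 ± 0.21, adjusted p = 0.0415), at 10.6 ± 3.56 CPM in Rg1 plus LPS, 9.68 ± 1.28 CPM in LPS and 14.9 ± 3.24 CPM in control. That call was lost with no filter and without LPS replicate 1, 2, 4 or 5 or control replicate 2, 3 or 4 (adjusted p up to 0.113). The low Fzd9 was higher in LPS than in control (0.88 ± 0.27, adjusted p = 0.0287), at 0.78 ± 0.17 CPM in Rg1 plus LPS, 0.90 ± 0.16 CPM in LPS and 0.49 ± 0.17 CPM in control, a call lost with no filter and without LPS replicate 3 or 5 or control replicate 2 or 4 (adjusted p up to 0.0764). Fzd10os, at 0.98 ± 0.19 CPM in Rg1 plus LPS, 0.52 ± 0.15 CPM in LPS and 0.78 ± 0.24 CPM in control, was higher in Rg1 plus LPS than in LPS (log2 fold change 0.93 ± 0.28, adjusted p = 0.0127). Fzd10 itself passed nowhere.

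The co-receptors Lrp5 and Lrp6 were both lower in Rg1 plus LPS than in either other group and differed in LPS against control. Lrp5 had 60.3, 66.0, 61.9, 62.6 and 72.7 CPM in Rg1 plus LPS, 90.6, 91.1, 79.8, 80.7 and 87.2 CPM in LPS, and 80.8, 76.8, 74.8, 69.6 and 75.5 CPM in control. Every Rg1 plus LPS library was below every LPS library, while LPS and control met at about 80 CPM. Its log2 fold changes were -0.41 ± 0.06 in Rg1 plus LPS against LPS (adjusted p = 6.73e-05), 0.19 ± 0.06 in LPS against control (adjusted p = 0.0412) and -0.22 ± 0.06 in Rg1 plus LPS against control (adjusted p = 0.011). The small rise in LPS was not called without control replicate 2, 3, 4 or 5, without LPS replicate 1, 2 or 5, without Rg1 plus LPS replicate 2 or 4, without LPS replicates 2 and 3 together, with no filter, with the length offset or with library size alone as the scale (adjusted p = 0.0548 to 0.124). The value against control in Rg1 plus LPS was not called with the length offset (adjusted p = 0.0755) or without Rg1 plus LPS replicates 1 and 4 (adjusted p = 0.0543).

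Lrp6 had 43.1, 56.1, 49.4, 38.6 and 46.8 CPM in Rg1 plus LPS, 56.0, 59.3, 60.6, 57.5 and 50.4 CPM in LPS, and 69.5, 83.3, 67.9, 73.7 and 62.1 CPM in control. Both treated groups lay below all control libraries and overlapped each other. For Lrp6, the log2 fold change was -0.28 ± 0.10 in Rg1 plus LPS against LPS (adjusted p = 0.0248), -0.33 ± 0.09 in LPS against control (adjusted p = 0.0186) and -0.61 ± 0.10 in Rg1 plus LPS against control (adjusted p = 0.000133). The first was not called with the length offset, where it was -0.06 (adjusted p = 0.613), with library size alone (-0.17), or without LPS replicate 2, 3 or both, without Rg1 plus LPS replicate 4 or 5, or without replicates 1 and 4 of that group (-0.15). The second was not called without control replicate 2 (adjusted p = 0.059).

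Of the 7 secreted inhibitors tested, 1 was lower and none higher in Rg1 plus LPS against LPS, 1 was lower in LPS against control and 3 were lower in Rg1 plus LPS against control. The share of inhibitors called was thus 14.3%, 14.3% and 42.9% in these comparisons, where 45.4%, 23.7% and 36.9% of all genes were called. Without Rg1 plus LPS replicates 1 and 4, 3 were higher and 1 lower in Rg1 plus LPS against LPS, 3 were lower in LPS against control, and none was called in Rg1 plus LPS against control. The shares of all genes called without these 2 libraries were 47.5%, 28.9% and 36%. Wif1, which binds WNT proteins directly, had 1.13, 4.17, 3.21, 1.6 and 2.62 CPM in Rg1 plus LPS, 4.76, 8.46, 8.36, 4.66 and 4.41 CPM in LPS, and 4.18, 4.74, 4.78, 7.08 and 3.53 CPM in control. Every LPS library was above every Rg1 plus LPS library, and control overlapped both. Its log2 fold change was -1.26 ± 0.31 in Rg1 plus LPS against LPS (adjusted p = 0.0038) and -0.93 ± 0.31 in Rg1 plus LPS against control (adjusted p = 0.0291). The second was not called without Rg1 plus LPS replicate 1, 4 or 5 or without control replicate 4 (adjusted p = 0.0517 to 0.0861), and was -0.54 without Rg1 plus LPS replicates 1 and 4 (adjusted p = 0.15).

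Dkk3, a divergent Dickkopf protein that does not act as a classical WNT antagonist, had 192.1 ± 46.2 CPM in Rg1 plus LPS, 174.0 ± 22.9 CPM in LPS and 239.4 ± 19.9 CPM in control. It was lower in LPS than in control (log2 fold change -0.46 ± 0.14, adjusted p = 0.0269), with no overlap, and lost the call without LPS replicate 1, 4 or 5 or control replicate 2 or 3 (adjusted p up to 0.0689). Sfrp1, which holds WNT proteins through a Frizzled-like domain, had 95.3 ± 34.3 CPM in Rg1 plus LPS, 113.0 ± 24.2 CPM in LPS and 148.3 ± 15.4 CPM in control. Sfrp1 was lower in Rg1 plus LPS than in control (-0.64 ± 0.22, adjusted p = 0.0297), as was Frzb (-0.43 ± 0.16, adjusted p = 0.0498), and both lost the call without Rg1 plus LPS replicates 1 and 4. Frzb was called in only 9 of the 26 alternatives (adjusted p up to 0.249), and Sfrp1 lost its call in 5, also with no filter and without Rg1 plus LPS replicate 4 or control replicate 2 or 4. Without Rg1 plus LPS replicates 1 and 4, Dkk3, Sfrp2 and Sfrp4 were higher in Rg1 plus LPS than in LPS. Their log2 fold changes were then 0.38, 1.44 and 0.80, where the values with all 5 libraries were 0.14, 0.83 and 0.50 and did not pass. Dkk1, the best known Lrp6 antagonist, was nearly silent, with 1 count in Rg1 plus LPS, 4 in LPS and 1 in control, and Sfrp5 had 27 in Rg1 plus LPS, 13 in LPS and 18 in control.

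The feedback genes did not move as 1 group. Axin2, a scaffold of the destruction complex and the most used readout of beta-catenin signalling, had 10.1, 22.7, 32.9, 12.4 and 25.4 CPM in Rg1 plus LPS, 17.4, 22.1, 24.4, 16.4 and 17.7 CPM in LPS, and 34.0, 48.7, 37.3, 40.5 and 23.6 CPM in control. Apart from control replicate 5, control libraries were above every treated library, and Rg1 plus LPS spanned the whole LPS range. Axin2 was lower in LPS than in control (log2 fold change -0.91 ± 0.27, adjusted p = 0.0243) and in Rg1 plus LPS than in control (-0.83 ± 0.27, adjusted p = 0.0255). In Rg1 plus LPS against LPS it was 0.08 ± 0.27 (adjusted p = 0.837), with a 95% interval of -0.45 to 0.61. The value of LPS against control was not called with no filter, or without LPS replicate 1, 4 or 5 or control replicate 2 or 4 (adjusted p = 0.0511 to 0.0677). That of Rg1 plus LPS against control was not called with no filter, with only these 2 groups in the fit, or without Rg1 plus LPS replicate 4 or control replicate 2 or 4, and was -0.45 without Rg1 plus LPS replicates 1 and 4 (adjusted p = 0.108). Axin2 overlaps Gm11670 on the other strand.

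Rnf43, a ubiquitin ligase that removes Frizzled receptors from the surface, was lower in both treated groups. It overlaps 1110028F11Rik on the same strand and Gm25968 on the other. Its counts were 13, 34, 30, 10 and 29 in Rg1 plus LPS, 16, 29, 24, 24 and 35 in LPS, and 40, 90, 49, 75 and 42 in control. All treated libraries were below all control libraries. The log2 fold change was -1.21 ± 0.34 in LPS against control (adjusted p = 0.0163, and 0.0535 without control replicate 2) and -1.50 ± 0.34 in Rg1 plus LPS against control (adjusted p = 0.00283). Its relative Znrf3, with the same action on Frizzled, had a log2 fold change of 0.32 ± 0.11 in LPS against control (adjusted p = 0.0432), with 6.88 ± 0.76 CPM in Rg1 plus LPS, 7.50 ± 0.41 CPM in LPS and 6.00 ± 0.77 CPM in control. This call was lost in 17 of the 26 alternatives (adjusted p up to 0.118), among them library size alone, no filter, the length offset and every LPS library left out in turn. Nkd1, which binds Dishevelled, had 1.01, 2.56, 1.88, 0.958 and 1.98 CPM in Rg1 plus LPS, 1.88, 2.25, 3.53, 1.5 and 1.78 CPM in LPS, and 2.27, 2.52, 2.4, 2.31 and 2.05 CPM in control. The 3 groups overlapped and no comparison passed for Nkd1 or Nkd2.

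The 4 TCF/LEF factors each showed another pattern. Lef1, an activator and itself a common WNT target, had 0.652, 0.397, 0.445, 0.293 and 0.191 CPM in Rg1 plus LPS, 1.02, 0.894, 0.799, 1.92 and 0.977 CPM in LPS, and 0.594, 0.677, 0.801, 1.11 and 1.04 CPM in control. All Rg1 plus LPS libraries were below all LPS libraries, and 1 of them, replicate 1, lay above the lowest control library. Its log2 fold change was -1.50 ± 0.34 in Rg1 plus LPS against LPS (adjusted p = 0.00174) and -1.08 ± 0.34 in Rg1 plus LPS against control (adjusted p = 0.0195, and 0.052 without control replicate 4). Tcf7, known in T cells as TCF1, had 37.3, 50.7, 53.2, 42.2 and 48.4 CPM in Rg1 plus LPS, 47.3, 45.8, 39.8, 39.5 and 44.1 CPM in LPS, and 60.2, 57.3, 64.9, 62.9 and 63.7 CPM in control. Every control library was above every treated one. Tcf7 was lower in LPS than in control (-0.51 ± 0.09, adjusted p = 0.000386) and in Rg1 plus LPS than in control (-0.41 ± 0.09, adjusted p = 0.00155). With the length offset the second value was -0.21 (adjusted p = 0.0902), and Tcf7 was then higher in Rg1 plus LPS than in LPS by 0.33.

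Tcf7l1, which represses targets when the pathway is idle, was the only member higher in both treated groups than in control. Its levels were 34.6, 41.2, 38.1, 33.3 and 39.2 CPM in Rg1 plus LPS, 36.8, 36.1, 35.8, 35.4 and 38.9 CPM in LPS, and 29.4, 26.1, 31.2, 28.1 and 28.1 CPM in control. No control library reached a treated one, and the treated groups overlapped. Tcf7l1 had a log2 fold change of 0.36 ± 0.07 in LPS against control (adjusted p = 0.000975) and 0.38 ± 0.07 in Rg1 plus LPS against control (adjusted p = 0.000376). Between the treated groups it was 0.03 ± 0.07 (adjusted p = 0.784), and 0.25 and called with the length offset. Tcf7l2, the factor best known from the gut and pancreas, passed in no comparison at 24.9 ± 3.31 CPM in Rg1 plus LPS, 21.5 ± 1.95 CPM in LPS and 25.3 ± 1.95 CPM in control. It was, however, called higher in Rg1 plus LPS than in LPS in 11 of the 26 alternatives (adjusted p down to 0.000844), and lower in LPS than in control in 8 (down to 0.0107), both with library size alone and with the length offset. Lef1, Tcf7 and Tcf7l1 each overlap other annotated genes on either strand.

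Levels were compared between genes as the deposited FPKM, which is scaled to gene length. Secreted inhibitors summed to 90.8 ± 25.1 FPKM in Rg1 plus LPS, 83.4 ± 12.0 FPKM in LPS and 115 ± 9.49 FPKM in control (SD, n = 5 each). Dkk3 made up 61.4% of the sum in Rg1 plus LPS, 56.0% in LPS and 57.9% in control, and Sfrp1 24.3% in Rg1 plus LPS, 29.1% in LPS and 28.7% in control. These 2 genes held the first and second place in every group, with no overlap between them or with Dkk2, which came next. Since Dkk3 does not act as a classical WNT antagonist, most of the inhibitor sum was not RNA of such antagonists. Ligands summed to 33.9 ± 5.79 FPKM in Rg1 plus LPS, 34.9 ± 3.11 FPKM in LPS and 43.0 ± 1.76 FPKM in control. In FPKM all control libraries, from 41.6 FPKM up, were above all treated ones, which reached 39.8 FPKM. FPKM is scaled to the raw library total, without the normalisation factors used for CPM. These factors were 0.95 to 0.99 in LPS, 0.98 to 1.01 in control and 1.02 to 1.06 in Rg1 plus LPS. Whether the narrow gap holds with them was not tested. Receptors summed to 100 ± 18 FPKM in Rg1 plus LPS, 118 ± 5.12 FPKM in LPS and 115 ± 3.89 FPKM in control.

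The order of the ligands differed between groups. In Rg1 plus LPS, Wnt5b (8.30 FPKM), Wnt2 (6.42), Wnt7a (6.35), Wnt5a (4.50) and Wnt9a (4.24) led with overlapping libraries from each to the next, and Wnt16 (2.05 FPKM) followed below them. In LPS, Wnt2 (8.94 FPKM), Wnt5b (5.44), Wnt5a (4.38), Wnt7a (4.13) and Wnt9a (3.38) again overlapped from each to the next, and Wnt10b came sixth at 2.28 ± 0.52 FPKM, overlapping Wnt9a and Wnt16. In control, Wnt2 (9.46 FPKM), Wnt7a (9.13) and Wnt5b (8.39) overlapped and stood above Wnt16 (5.60), Wnt5a (4.33) and Wnt9a (3.61). Wnt10b was at 0.066 ± 0.049 FPKM in Rg1 plus LPS and at 0.045 ± 0.019 FPKM in control. It made up 0.194% of the ligand sum in Rg1 plus LPS, 6.54% in LPS and 0.104% in control.

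For the receptors, Fzd2 came first in Rg1 plus LPS (32.6 ± 8.95 FPKM), overlapping Fzd7 (22.9 ± 1.4), and Fzd1 followed at 16.2 ± 4.96 FPKM. Fzd1 came first in LPS at 42.1 ± 6.21 FPKM, above every library of Fzd7 (27.7 ± 4.3). In control Fzd7 (30.0 ± 2.24 FPKM), Fzd1 (26.7 ± 2.65) and Fzd2 (24.8 ± 0.87) overlapped from each to the next. Fzd6 came next in every group, at 11.0 FPKM in Rg1 plus LPS, 11.9 FPKM in LPS and 14.6 FPKM in control, and Fzd9 and Fzd10 were below 0.5 FPKM on average in all 3.

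**Figure D4:**
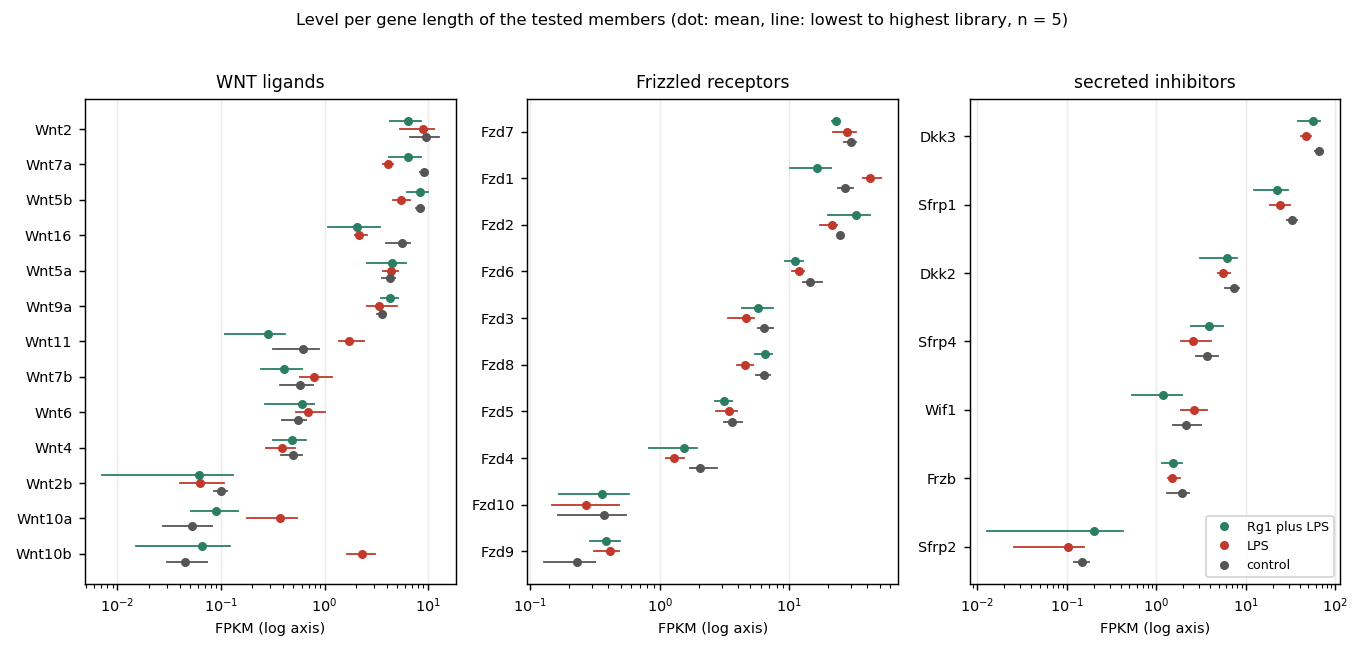
Level per gene length (FPKM, log axis) of the tested ligands, Frizzled receptors and secreted inhibitors, in order of their control mean, with the mean as a dot and a line from the lowest to the highest of the 5 libraries of each group. Wnt10b and Wnt10a lie to the right in LPS, and Dkk3 and Sfrp1 lead the inhibitors in all 3 groups.

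Other genes of the pathway were taken from 6 lists, which were chosen with earlier results of these data known. Of all genes, 22.2% were higher and 23.2% lower in Rg1 plus LPS than in LPS, 13.8% higher and 9.82% lower in LPS than in control, and 18.8% higher and 18.1% lower in Rg1 plus LPS than in control. When Rg1 plus LPS replicates 1 and 4 were left out, the number called in a direction moved by at most 2 genes in any of the 6 lists. In the list for WNT release and R-spondins, 7 of 10 genes were tested: 2 were lower and none higher in Rg1 plus LPS against LPS, 1 was higher and 1 lower in LPS against control, and 1 was higher and 1 lower in Rg1 plus LPS against control. Wls, the carrier that brings WNT proteins to the surface, had 470.3 ± 62.6 CPM in Rg1 plus LPS, 604.2 ± 40.3 CPM in LPS and 683.5 ± 15.3 CPM in control, and was lower in Rg1 plus LPS than in LPS (log2 fold change -0.36 ± 0.08, adjusted p = 0.0014) and than in control (-0.54 ± 0.08, adjusted p = 7.42e-05). Rspo3, which strengthens WNT signals by removing Rnf43 and Znrf3, was lower in Rg1 plus LPS than in LPS (-0.79 ± 0.19, adjusted p = 0.00276) and higher in LPS than in control (0.97 ± 0.19, adjusted p = 0.00128). Rspo2 was higher in Rg1 plus LPS than in control (0.78 ± 0.25, adjusted p = 0.0212).

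Of the 6 genes tested in a list of other extracellular and membrane inhibitors, 1 was higher and 3 lower in Rg1 plus LPS against LPS, 1 was higher and 1 lower in LPS against control, and 1 was lower in Rg1 plus LPS against control. The 1 higher in the first comparison and the 1 lower in the second were both Bambi, a decoy receptor for TGF-beta rather than for WNT proteins. Bambi had 21.6 ± 1.49 CPM in Rg1 plus LPS, 12.2 ± 0.83 CPM in LPS and 19.6 ± 2.46 CPM in control. Its log2 fold change was 0.83 ± 0.09 in Rg1 plus LPS against LPS (adjusted p = 1.32e-06) and -0.69 ± 0.09 in LPS against control (adjusted p = 1.99e-05). Kremen1, a Dkk receptor, was lower in Rg1 plus LPS than in LPS (-0.34 ± 0.07) and than in control (-0.35 ± 0.07). Tpbg was lower in Rg1 plus LPS than in LPS (-0.24 ± 0.06) and higher in LPS than in control (0.24 ± 0.06), each of these past the threshold.

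All 10 destruction complex genes were tested. None was higher and 6 were lower in Rg1 plus LPS against LPS, where 23.2% of all genes were lower, 3 were higher and 1 lower in LPS against control, and 1 was higher and 3 lower in Rg1 plus LPS against control. The kinases Gsk3b and Csnk1a1, which mark beta-catenin for degradation, had log2 fold changes of -0.46 ± 0.07 and -0.21 ± 0.05 in Rg1 plus LPS against LPS. The kinase Csnk1e had -0.52 ± 0.11 in the same comparison, and all 3 were called. Ctnnb1, the gene of beta-catenin, had 928.2 ± 24.3 CPM in Rg1 plus LPS, 1121 ± 31.4 CPM in LPS and 1117 ± 20.4 CPM in control, and was lower in Rg1 plus LPS than in LPS (-0.27 ± 0.05, adjusted p = 0.000225) and than in control (-0.27 ± 0.05, adjusted p = 0.00043). Ctnnb1 belongs to the 9 Dishevelled, beta-catenin and partner genes, of which none was higher and 3 lower in Rg1 plus LPS against LPS, 2 higher and none lower in LPS against control, and 2 higher and 1 lower in Rg1 plus LPS against control. The co-activator Bcl9l was lower in Rg1 plus LPS than in LPS (-0.44 ± 0.07) and higher in LPS than in control (0.47 ± 0.07), and Dvl1 was higher than in control in both LPS (0.40 ± 0.09) and Rg1 plus LPS (0.54 ± 0.09).

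The 13 genes of non-canonical receptors and planar polarity held 2 higher and 2 lower in Rg1 plus LPS against LPS, 3 higher and 5 lower in LPS against control, and none higher and 5 lower in Rg1 plus LPS against control. Daam1, which links Dishevelled to the actin cytoskeleton, had 31.0 ± 3.21 CPM in Rg1 plus LPS, 78.3 ± 7.11 CPM in LPS and 45.3 ± 1.55 CPM in control. Its log2 fold change was -1.34 ± 0.08 in Rg1 plus LPS against LPS (adjusted p = 8.93e-10), 0.79 ± 0.08 in LPS against control and -0.55 ± 0.08 in Rg1 plus LPS against control. Ror2, the receptor of Wnt5a, fell to 19.3 ± 5.54 CPM in Rg1 plus LPS and 27.5 ± 3.63 CPM in LPS, against 39.9 ± 3.78 CPM in control, with each of the 3 comparisons called. Prickle2 was higher in Rg1 plus LPS than in LPS (0.67 ± 0.20, adjusted p = 0.013) and lower in LPS than in control (-1.02 ± 0.20, adjusted p = 0.00159).

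Of the 7 tested beta-catenin target genes outside the rule, none was higher and 4 were lower in Rg1 plus LPS against LPS (23.2% of all genes were lower), 2 were higher and 1 lower in LPS against control, and none was higher and 4 lower in Rg1 plus LPS against control. Ccn4, also called WISP1, had 22.2 ± 5.98 CPM in Rg1 plus LPS, 92.2 ± 20.2 CPM in LPS and 29.2 ± 1.83 CPM in control, with log2 fold changes of -2.06 ± 0.17 in Rg1 plus LPS against LPS (adjusted p = 1.25e-07) and 1.66 ± 0.17 in LPS against control (adjusted p = 2.33e-06). Cd44, a hyaluronan receptor that many pathways control, had 325.6 ± 45.6 CPM in Rg1 plus LPS, 876.2 ± 54.8 CPM in LPS and 558.6 ± 46.7 CPM in control, with all 3 comparisons called. Myc, likewise under many signals, was lower in Rg1 plus LPS than in LPS (-0.65 ± 0.12) and than in control (-0.96 ± 0.12). These target genes and the feedback gene Axin2 therefore did not share 1 direction: Ccn4 and Cd44 were higher in LPS than in control, where Axin2 was lower.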

How the data were processed

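Per the labels, RNA of mouse primary astrocytes was extracted with TRIzol and polyadenylated RNA was sequenced. The submitters' processing notes name GRCm38 and mm10. Which aligner, counting program, annotation and strand setting were used is not given in the sources used here. The authors deposited, library by library, raw counts for 25748 gene symbols and FPKM, which scales counts to gene length and library total. In the deposited FPKM files 37 rows with damaged symbols, none a member, were left out.

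The fit was made in R 4.3.3 with edgeR 4.0.16: filterByExpr by group (15362 genes kept), TMM factors, all 15 libraries in 1 robust quasi-likelihood fit with group as the only term, F-tests and Benjamini-Hochberg adjustment over all genes. SE is the size of the log2 fold change divided by the square root of F. CPM uses the TMM-scaled library size. DESeq2 1.42.0 and limma 3.58.1 served alternatives. Counting intervals (95%, exact) do not cover PCR duplication or the spread of libraries. For a gene at 0 in a group, the floor is 3 counts over the 5 libraries of that group.

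Members and lists were chosen with earlier results of these data known. A member is given with every library's value if it was called, had a mean of at least 2 CPM in a group and was among the first 16 by smallest adjusted p. Axin2, Lef1 and Nkd1 were added, and Wnt10a, Wnt1 and Rnf43 were given by library after their values were seen. Of each pathway list up to 3 called genes are named by smallest adjusted p. Of 108 list symbols 106 were found. The treatment field of the Rg1 libraries counts upward from Rg1 to Rg5, but titles and design text give 5 replicates of Rg1, which was followed. Gene positions are from GENCODE M21 and promoters from RefSeq (GRCm38.p6). The fit was also run on simulated data with known differences, in which every gene had the same spread beyond counting error. No result here rests on that run, which does not cover small changes or genes with few counts. Alternatives were other scalings, no filter, other tools, the compared groups alone, a replicate block, an offset for gene length and leaving libraries out.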

Additional observations from a re-analysis of the deposited data

Results flagged for a closer look

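Of 126 groups of 5 libraries tested for a library far from its group, 3 stood out, where chance gives about 1 in 20. Lef1 had 1.92 CPM in LPS replicate 4, against 0.799 to 1.02 CPM in the other LPS libraries. Sfrp4 had 7.46 CPM in LPS replicate 3, against 3.51 to 4.55 CPM in the others. Wnt2b had 0.399 CPM in the same library, against 0.15 to 0.217 CPM in the others. LPS replicate 3 was also the LPS library with the highest sum of microglia markers, at 78.2 CPM, and of astrocyte markers, at 10000 CPM. Their part in these values was not tested.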

How the results depend on the processing

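Calls among the members numbered 15 to 18 in Rg1 plus LPS against LPS, 10 to 19 in LPS against control and 12 to 17 in Rg1 plus LPS against control when each library was left out in turn. The shares of all genes called in the same fits were 40.6 to 47.4%, 18.4 to 28.6% and 31.5 to 38.4%. The lowest member counts in LPS against control were 10 without control replicate 2 and 12 without LPS replicate 5, and the cause was not tested. With the replicate number as a block the member counts were 18, 20 and 18 (47.2%, 26.8% and 39.2% of all genes). With block and length offset they were 19, 19 and 17 (41%, 26.7% and 33.4% of all genes). Under the block alone, Fzd6 (lower) and Tcf7l2 (higher) were also called in Rg1 plus LPS against LPS, Tcf7l2 (lower) in LPS against control and Dkk3 (lower) in Rg1 plus LPS against control, and no call was lost. The labels do not say that a number marks a shared culture or day. Deviations of same-numbered libraries correlated above 0.1 in 4 of 5 pairs for Rg1 plus LPS against LPS, all but replicate 2 (0.0499), with 3 of 5 best with their own number, a hint from the data. They did so in 1 of 5 for LPS against control (none best with its own) and 1 of 5 for Rg1 plus LPS against control (1 best). Over 38 called values of described members and their alternatives, 939 of 988 kept the call, 49 lost it and none changed sign. Most described members were chosen for a small adjusted p in these same data, which favours a kept call. Among all members, at least 1 alternative lost 3 of 16 calls in Rg1 plus LPS against LPS. It was 10 of 19 in LPS against control and 8 of 17 in Rg1 plus LPS against control. Among values of described members that were not called, the sign changed as follows. Fzd8 in Rg1 plus LPS against control was 0.017 with library size alone, 0.093 without Rg1 plus LPS replicates 1 and 4, and -0.094 to 0.0096 over the libraries left out singly. Wnt5b in the same comparison was 0.096 without those 2 libraries and -0.14 to 0.0083 over single libraries. Axin2 in Rg1 plus LPS against LPS was -0.029 with limma's voom and -0.13 (without Rg1 plus LPS replicate 3) to 0.25 over single libraries. Nkd1 in LPS against control was -0.33 to 0.027 (without LPS replicate 4) over single libraries left out. Without LPS replicates 2 and 3, Tcf7l1 in Rg1 plus LPS against LPS was -0.0011, and in LPS against control Fzd7 was 0.058 and Wif1 -0.079. Wnt16 in Rg1 plus LPS against LPS was 0.21 without Rg1 plus LPS replicates 1 and 4. The cause was not tested. The 6 ligands and 2 inhibitors with too few counts to pass the filter had at most 36 counts in any group.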
